A study of Mus musculus with 52 samples.

Results

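A set of 8 genes that muscle is known to switch on, switch off or need when it loses its nerve were followed through 3 tissues of a mouse model of amyotrophic lateral sclerosis. They are Runx1, Gdf5, Ncam1, Hdac4, Hdac9, Dach2, Gadd45a and Fgfbp1. They were taken by symbol from a table of 55401 mouse genes, and all 8 were found there. The rule itself uses no measured value, but the members were chosen with earlier results of these data known. The set holds the transcriptional regulators and signalling proteins of the denervation response and leaves out the receptors and channels that those regulators act on.

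Transgenic mice carried human PFN1 with the C71G change, a profilin variant that causes familial disease, and wild types were FVB/NJ mice of matched age. The transgenic amiR arm had received an adeno-associated virus (AAV) carrying an artificial microRNA against Atxn2, the transgenic vehicle arm had received vehicle, and so had the wild-type arm. Poly(A) RNA was sequenced from muscle, spinal cord and cortex in 52 libraries, with 6 libraries per arm and tissue except for 5 of transgenic vehicle muscle and 5 of wild-type cortex. All wild types were 36 weeks old, and so were the transgenic mice of all but 11 libraries, which were 38 or 39 weeks old. In muscle and spinal cord every mouse older than 36 weeks was a transgenic female. No arm received a control vector, so that the amiR arm differs from vehicle in the virus as well as in the microRNA. The labels used here do not state the promoter of the transgene, the number of founder lines, or which muscle was taken, and they do not tie the tissues to animals.

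When a motor axon withdraws, its muscle fibre falls electrically silent, and the fibre answers with a transcriptional programme that spreads synaptic proteins over its whole surface. In mice the class IIa histone deacetylases Hdac4 and Hdac9 carry the signal, because they bind MEF2 factors and repress their targets. Hdac4 accumulates after denervation and represses Dach2 and Hdac9, the corepressors that hold myogenin down in innervated muscle. Released myogenin then activates the acetylcholine receptor genes and the atrophy ubiquitin ligases. Runx1, Gdf5, Ncam1 and Gadd45a are raised in the same state, and Runx1 and the bone morphogenetic protein ligand Gdf5 protect mouse fibres against excessive wasting.

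The members lie on GRCm38 at chr16:92601466-92826149 (Runx1), chr2:155941023-155945367 (Gdf5), chr9:49502136-49798925 (Ncam1), chr1:91928779-92195699 (Hdac4), chr12:34047580-34917095 (Hdac9), chrX:113297510-113836386 (Dach2), chr6:67035096-67037457 (Gadd45a) and chr5:43978858-43981779 (Fgfbp1). All 8 are protein-coding, and all are on the minus strand except Dach2. RefSeq promoter windows of GRCm38.p6, which run from 250 bases before a gene's start to 50 bases after it, were matched for 6 of the 8 members. Gdf5 and Ncam1 were not matched. Windows of 3 members that rose together in muscle are printed so that their regulatory letters can be compared. Both strands were searched for a pair of motifs: the E-box, CANNTG, which myogenin and the other myogenic factors bind, and TGTGGT, the core that RUNX proteins bind. Capitals mark those letters, read 5′ to 3′ along the gene's strand, and no E-box overlaps a RUNX core in the windows below. The first is the distal Runx1 promoter, chr16:92826025-92826324 on the minus strand, which holds 3 E-boxes and 2 RUNX cores. The second is the Gadd45a promoter, chr6:67037358-67037657 on the minus strand, with 1 E-box and no RUNX core. The third is the Hdac4 promoter, chr1:92180292-92180591 on the minus strand, with neither, at a start inside the annotated gene.
Runx1: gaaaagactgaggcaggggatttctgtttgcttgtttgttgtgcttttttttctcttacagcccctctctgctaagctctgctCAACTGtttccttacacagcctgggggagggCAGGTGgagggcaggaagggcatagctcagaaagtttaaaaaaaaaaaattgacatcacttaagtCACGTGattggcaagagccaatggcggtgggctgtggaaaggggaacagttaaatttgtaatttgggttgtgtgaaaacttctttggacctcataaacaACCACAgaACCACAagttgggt
Gadd45a: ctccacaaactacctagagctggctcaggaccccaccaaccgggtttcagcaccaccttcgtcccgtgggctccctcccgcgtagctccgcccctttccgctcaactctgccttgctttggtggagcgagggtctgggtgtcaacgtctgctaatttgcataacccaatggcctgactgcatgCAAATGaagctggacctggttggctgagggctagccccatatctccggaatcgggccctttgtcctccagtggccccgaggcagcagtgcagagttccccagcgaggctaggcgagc
Hdac4: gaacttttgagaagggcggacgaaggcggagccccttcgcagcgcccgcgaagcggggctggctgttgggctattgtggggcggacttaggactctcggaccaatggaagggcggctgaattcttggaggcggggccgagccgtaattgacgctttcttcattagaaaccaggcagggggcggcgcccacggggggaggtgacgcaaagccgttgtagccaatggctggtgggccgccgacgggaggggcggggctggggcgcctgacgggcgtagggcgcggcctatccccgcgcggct
Of 32851 mouse promoter windows of the same length, 72.3% held an E-box and 16.8% a RUNX core. The other matched windows also differed, since the upstream Hdac9 promoter held 2 E-boxes and no RUNX core. The downstream Hdac9 promoter held 3 E-boxes and no RUNX core. Windows of members not called in muscle held these motifs too. The Fgfbp1 window held 2 E-boxes and no RUNX core. The upstream Dach2 window held 1 E-box and no RUNX core, and the downstream Dach2 window 1 RUNX core and no E-box. The second Runx1 window, at the proximal start, held neither motif.

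Libraries held between 66481829 and 111866153 counts assigned to mouse genes. Levels are given as CPM, a gene's counts relative to the total of its library, scaled within each tissue by the trimmed mean of M-values (TMM). Differences are log2 changes from edgeR's quasi-likelihood test with a term for sex, and adjusted p-values follow Benjamini and Hochberg over every gene tested in the tissue, with 0.05 as the threshold for a call. In CPM of plain library totals, without TMM, human PFN1 stood between 170.2 and 1616 CPM in the 35 transgenic libraries and at no more than 0.0143 CPM in the 17 wild-type libraries. In each tissue, replicates differed by more than sampling noise, and no library repeated another. In spinal cord 4 libraries had a library name that disagreed with the arm in their title, and all 4 had the vector counts of the title, which was used. These are bulk tissues, in which fewer cells of a type and less RNA per cell cannot be told apart.

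The clearest change was in muscle. Runx1, Gdf5, Ncam1, Hdac4 and Gadd45a all rose in transgenic vehicle muscle by between 3.45-fold (Hdac4) and 53-fold (Gdf5), with no overlap between the arms, whereas Dach2 and Fgfbp1 did not pass the test or were too low for it. The share of all genes tested whose arms do not overlap was not counted, so this separation is a description of the members. Hdac9 passed narrowly and its arms overlapped. In all, 6 of the 7 members tested were called, beside 50.5% of the 16949 genes tested in this comparison, so that being called is itself common in this muscle. The size of the change was less common: 5 of the 7 changed more than 2-fold, beside 12.7% of all genes tested. The median log2 change was 2.92 over the 7 tested members and 0.01 over all genes tested. Since the members were chosen with earlier results of these data known, these shares and medians describe the set and do not test it.

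**Figure D1:**
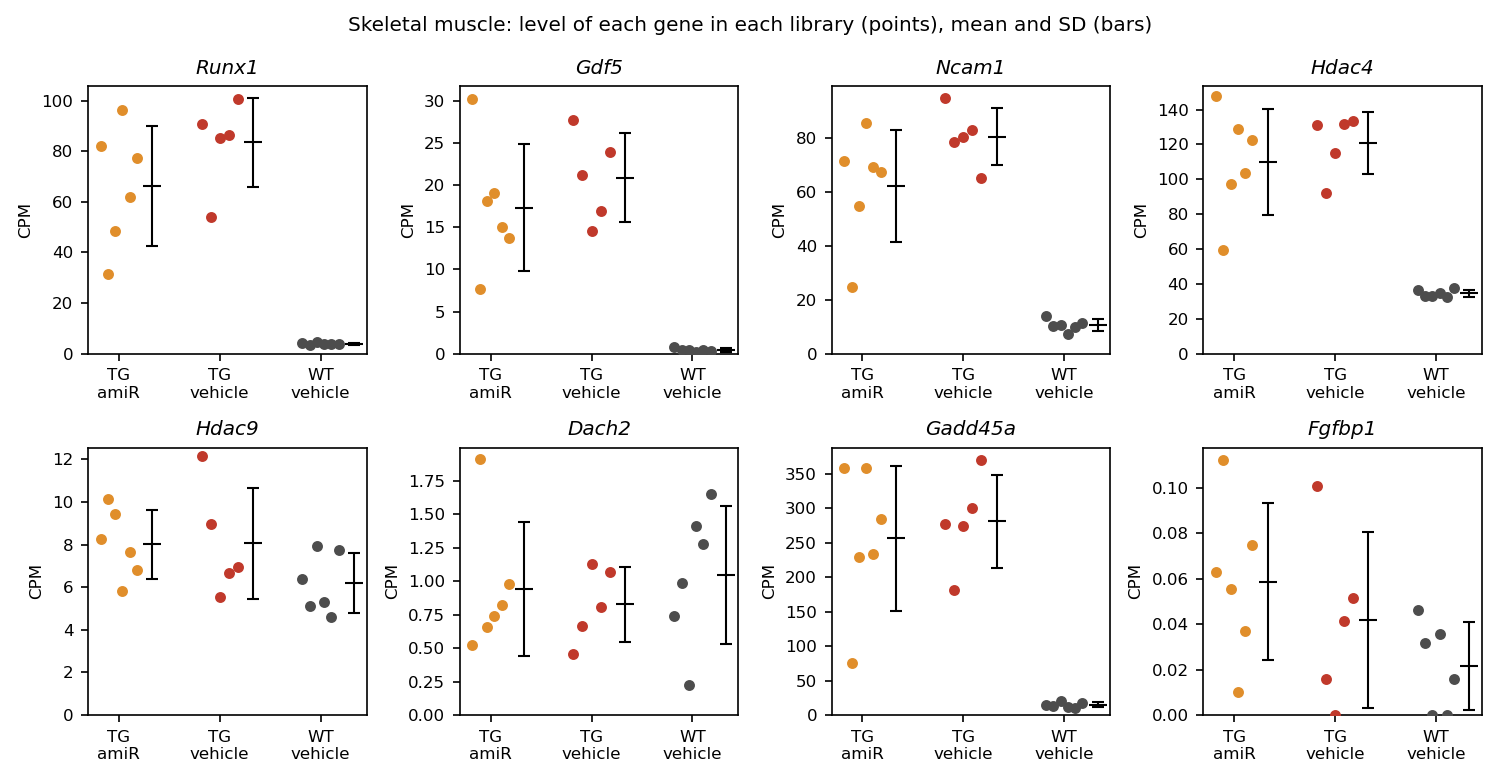
Level of each member in every muscle library, in CPM on a log axis, for transgenic amiR, transgenic vehicle and wild-type mice; points are libraries and bars are arm means. For Runx1, Gdf5, Ncam1, Hdac4 and Gadd45a every transgenic point lies above every wild-type point, while Hdac9 and Dach2 overlap and Fgfbp1 sits near 0.

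Among the transcription factors, Runx1 encodes the runt-domain DNA-binding subunit of core binding factor. Its levels in the 5 transgenic vehicle muscles were 90.9, 54.1, 85.4, 86.5 and 101 CPM. In the 6 wild-type muscles its lowest, median and highest levels were 3.39, 3.71 and 4.49 CPM. The lowest transgenic vehicle muscle therefore stood more than 10 times above the highest wild type. The means were 83.5 ± 17.5 CPM in transgenic vehicle muscle (SD, n = 5) and 3.85 ± 0.423 CPM in wild-type muscle (SD, n = 6), a log2 change of 4.396 (SE 0.23; edgeR adjusted p = 5.79e-09). By log2 change it ranked 85 among the 16949 genes.

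Dach2, a corepressor related to fly dachshund that holds down myogenin and is itself lowered by denervation in mice, was low in every arm, with 41 to 117 counts per transgenic vehicle library and 17 to 118 counts per wild-type library. Its levels were 0.458, 0.667, 1.13, 0.807 and 1.07 CPM in transgenic vehicle muscle. In wild-type muscle the lowest, median and highest were 0.226, 1.13 and 1.65 CPM. The arms overlapped along most of their range. The log2 difference was -0.37 (SE 0.38; edgeR adjusted p = 0.438), which neither shows a fall nor shows that the levels are alike.

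Of the class IIa deacetylases, Hdac4 moved far more than Hdac9. Hdac4 had 131.3, 92.1, 115, 132 and 134 CPM in transgenic vehicle muscle, against a lowest, median and highest of 32.5, 33.9 and 37.5 CPM in wild-type muscle. Its wild-type values were the tightest of the set relative to their mean and its transgenic values lay wholly above them. The log2 change was 1.79 (SE 0.16; edgeR adjusted p = 3.78e-07). Hdac9 had 12.2, 8.96, 5.52, 6.67 and 6.95 CPM in transgenic vehicle muscle, and a lowest, median and highest of 4.59, 5.87 and 7.92 CPM in wild-type muscle. Of the 5 transgenic vehicle values, 3 lay inside the wild-type range. Its log2 change of 0.39 (SE 0.16; edgeR adjusted p = 0.0481) was upward, opposite to the repression of Hdac9 known from denervated mouse muscle. This call was lost in 13 of 21 alternative analyses, among them the one without the sex term (edgeR adjusted p = 0.124).

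Gdf5 had the largest fold change of the set. It encodes a secreted ligand that signals through SMAD1, SMAD5 and SMAD9 and restrains denervation atrophy in mice. Its levels were 27.75, 21.2, 14.55, 17.01 and 24.03 CPM in transgenic vehicle muscle, against a lowest, median and highest of 0.155, 0.430 and 0.724 CPM in wild-type muscle. Wild-type libraries held between 13 and 47 Gdf5 counts, so the denominator of the fold is small but counted in each library. The log2 change was 5.73 (SE 0.34; edgeR adjusted p = 9.54e-09), with rank 33 of 16949.

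Fgfbp1, whose secreted protein releases fibroblast growth factors from the matrix and supports the neuromuscular junction in mice, was all but undetected in muscle. It had 0 to 9 counts per transgenic vehicle library and 0 to 3 counts per wild-type library, and did not pass the filter on low counts. No fold is given for it.

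Ncam1 and Gadd45a are effectors of the response. Ncam1 is the neural cell adhesion molecule, which is confined to the synapse in innervated fibres and covers them after denervation. It had 94.8, 78.3, 80.3, 83.0 and 65.2 CPM in transgenic vehicle muscle, against a lowest, median and highest of 7.31, 10.4 and 13.8 CPM in wild-type muscle. Gadd45a, a stress protein that in mice is induced through Hdac4 and Atf4 and drives fibre atrophy, had 277, 181, 274, 301 and 370 CPM in transgenic vehicle muscle. Its lowest, median and highest in wild-type muscle were 10.5, 13.7 and 20.2 CPM. For both genes the lowest transgenic vehicle library exceeded the highest wild-type library by several fold. The log2 changes were 2.92 for Ncam1 (SE 0.24; edgeR adjusted p = 1.49e-07) and 4.22 for Gadd45a (SE 0.32; edgeR adjusted p = 9.10e-08).

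Per length, in CPM per kilobase of merged exons, Gadd45a was by far the highest member in transgenic vehicle muscle at 159 ± 38.4 (SD, n = 5). Ncam1 at 9.27 ± 1.22, Gdf5 at 9.02 ± 2.28, Hdac4 at 7.64 ± 1.12 and Runx1 at 6.94 ± 1.45 CPM per kilobase formed a middle group, in which neighbours differed by less than the larger of their SDs. Hdac9 at 0.549, Dach2 at 0.0838 and Fgfbp1 at 0.0185 CPM per kilobase followed. The order in wild-type muscle was Gadd45a (8.28), Hdac4 (2.19), Ncam1 (1.22), Hdac9 (0.422), Runx1 (0.320), Gdf5 (0.177), Dach2 (0.106) and Fgfbp1 (0.00954 CPM per kilobase). Runx1 and Gdf5 thus stood above Hdac9 in transgenic vehicle muscle and below it in wild-type muscle.

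Genes antisense to a member could share its reads, since no source used here states the strand setting of the counting. The antisense genes that overlap Runx1, Gdf5, Ncam1 and Gadd45a stayed under 1 CPM in every muscle library. Gm26720, which overlaps Hdac4 on the opposite strand, was not analysed here. In spinal cord and cortex E230016M11Rik, antisense to Gadd45a, averaged between 3.18 and 4.26 CPM, which is close to the Gadd45a level in cortex.

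Markers of other cell types differed with genotype beside these changes. In transgenic vehicle muscle all 7 macrophage markers were called higher and their summed level was 113.6 to 141.4 CPM, against 21.8 to 81.5 CPM in wild-type muscle. All 6 fibroblast and fibro-adipogenic markers were called higher, with sums of 905 to 1867 CPM in transgenic vehicle and 234 to 707 CPM in wild-type muscle. Of 7 myofibre markers 4 were called lower and 2 higher, and their sums were 67180 to 84070 CPM in transgenic vehicle muscle and 104800 to 127700 CPM in wild-type muscle. Of 6 satellite cell markers 5 were called higher, among them Myf5 and Fgfr4 of the lists below, with sums of 13.6 to 16.4 CPM in transgenic vehicle and 10.6 to 16.96 CPM in wild-type muscle. The part of these cells in the members' changes was not tested. Of the motor neuron markers, whose cell bodies lie outside muscle, Chat, Slc18a3 and Mnx1 were at 0 in every muscle library. Schwann cell markers summed to 27.3 to 60.1 CPM in transgenic vehicle and 33.9 to 71.01 CPM in wild-type muscle, with 2 of 7 called higher. The part of Schwann cells in the change of Ncam1 was not tested either.

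The genes that act with the members in muscle were counted list by list in the same comparison, beside the all-gene median log2 change of 0.01. Of 14 genes of the deacetylase and myogenic axis 5 were called higher and 5 lower, with a median of 0.07. Myogenin, Myog, which Dach2 and Hdac9 hold down in innervated mouse muscle, rose to 99.9 CPM in transgenic vehicle muscle against 7.92 CPM in wild type (log2 change 3.68; edgeR adjusted p = 1.68e-07). Myf6 rose by 1.58 and Myf5 by 1.45 on the log2 scale. The deacetylase Hdac5 fell by 0.46 on the same scale.

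Of 12 synaptic targets 7 were called higher and 2 lower, with a median log2 change of 1.25. The receptor subunits Chrnd, Chrng and Chrna1 rose by 4.27, 4.96 and 3.93 on the log2 scale. Chrng encodes the fetal subunit, while the adult subunit Chrne was not called (log2 difference -0.23; edgeR adjusted p = 0.125). Ache, the synaptic esterase, fell by 1.16.

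Of 23 tested bone morphogenetic protein and activin genes 7 were called higher and 5 lower, with a median log2 change of 0.06. Gdf6, a close relative of Gdf5, rose to 2.85 CPM in transgenic vehicle muscle against 0.167 CPM in wild type. Id2, a target of the pathway, rose by 2.93 on the log2 scale, and Fbxo30, the ubiquitin ligase Musa1 that the pathway restrains in mice, rose by 0.83. Smad4 fell by 0.43, a call that was lost when libraries were scaled by their totals, and Mstn, myostatin, fell by 1.66.

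Of 7 tested genes linked to Ncam1 4 were called higher and none lower, with a median log2 change of 0.58. Nrcam, another adhesion molecule of the immunoglobulin family, rose by 5.04 on the log2 scale. St8sia2, the enzyme that places polysialic acid on Ncam1, rose to 6.96 CPM in transgenic vehicle muscle against 0.510 CPM in wild type. Chl1 rose by 2.06, and Fgfr1, a receptor that Ncam1 binds, by 0.58. Of 10 tested fibroblast growth factor genes, the pathway that Fgfbp1 serves, 4 were called higher and none lower, with a median of 0.49. These were Fgfr1, Fgfr2 (1.17), Fgfr4 (0.52) and Hspg2 (0.30 on the log2 scale), which encodes the matrix protein perlecan.

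Of the 4 RUNX partners 3 were called higher and 1 lower, with a median log2 change of 0.94. Runx2 rose to 2.32 CPM in transgenic vehicle muscle against 1.00 CPM in wild type, and Runx3 rose to 0.315 CPM in transgenic vehicle muscle against 0.102 CPM in wild type. Cbfb, the subunit that pairs with every RUNX protein, fell by 0.41 on the log2 scale, a call lost under scaling by library totals. Among 11 growth arrest and atrophy genes 4 were called higher and 4 lower, with a median of -0.03. Cdkn1a, a cell cycle inhibitor that Gadd45a induces in mice, rose to 198 CPM in transgenic vehicle muscle against 24.1 CPM in wild type. Sln, sarcolipin, rose by 6.18 and Ampd3 by 3.04 on the log2 scale. The paralogs of Gadd45a went the other way: Gadd45b fell by 1.38 and Gadd45g fell by 1.35 on the log2 scale. The ligases Fbxo32 and Trim63 were not called (log2 differences -0.03 and 0.23; edgeR adjusted p = 0.907 and 0.312). All 5 embryonic and neonatal fibre genes were called higher, with a median log2 change of 2.90, among them Tnnt2 (3.04), Myl4 (2.42), Myh3 (2.90) and Myh8 (3.62).

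Treatment with the amiR vector did not change any member in muscle past the threshold. None of the 7 tested members was called by edgeR between transgenic amiR and transgenic vehicle muscle, beside 1.12% of all genes called by edgeR. None had an unadjusted edgeR p under 0.05, beside 3234 of all 16949 genes tested. DESeq2 called none either, beside 5.72% of all genes called by that tool. The transgenic amiR muscles had a lowest, median and highest Runx1 of 31.55, 69.7 and 96.5 CPM. Those of Gdf5 were 7.62, 16.6 and 30.3 CPM, those of Ncam1 24.8, 68.2 and 85.5 CPM, those of Hdac4 59.6, 113 and 148 CPM, and those of Gadd45a 75.2, 258 and 358 CPM. Each of these ranges overlapped that of transgenic vehicle muscle and lay above that of wild type. The log2 differences from vehicle were -0.32 for Runx1 (SE 0.20), -0.30 for Gdf5 (SE 0.26), -0.37 for Ncam1 (SE 0.22), -0.12 for Hdac4 (SE 0.16) and -0.11 for Gadd45a (SE 0.29), with edgeR adjusted p between 0.377 and 0.869. With these errors a modest effect in either direction would not have been detected. Hdac9 had a lowest, median and highest of 5.81, 7.95 and 10.1 CPM in transgenic amiR muscle and a log2 difference of -0.03 from vehicle. Dach2 had 0.526, 0.781 and 1.92 CPM and a log2 difference of 0.32, which was -0.11 without transgenic amiR replicate 2 and -0.16 in mice of 36 weeks. Gadd45a likewise had 0.06 without that library. Neither Hdac9 nor Dach2 was called, and Fgfbp1 had 1 to 12 counts per transgenic amiR library.

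Against wild type, transgenic amiR muscle had 5 members called higher, beside 35.2% of all genes called. The log2 changes were 4.08 for Runx1, 5.43 for Gdf5, 2.55 for Ncam1, 1.66 for Hdac4 and 4.11 for Gadd45a. Both comparisons with wild type use the same 6 wild-type muscles. Hdac9 had a log2 difference of 0.36 (edgeR adjusted p = 0.0742). In the pathway lists 1 gene was called between transgenic amiR and transgenic vehicle muscle, Myf5, which was lower in transgenic amiR muscle (log2 change -0.80; edgeR adjusted p = 0.0442).

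Vector RNA was scarce in muscle. In CPM of plain library totals, without TMM, the vector's WPRE element stood at 0.00974 to 0.0505 CPM in the transgenic amiR muscles, against 36.5 to 77.7 CPM in the amiR spinal cords and 27.6 to 65.1 CPM in the amiR cortices, and at no more than 0.0127 CPM in transgenic vehicle libraries. On the TMM-scaled CPM used elsewhere, Atxn2, the vector's target, averaged 60.4 ± 5.72 CPM in transgenic amiR muscle (SD, n = 6) and 59.1 ± 2.72 CPM in transgenic vehicle muscle (SD, n = 5), with an edgeR adjusted p of 0.757. In spinal cord Atxn2 fell to 72.5 ± 0.859 CPM in transgenic amiR mice, against 106 ± 2.68 CPM in transgenic vehicle mice (SD, n = 6 each), a log2 change of -0.55 (edgeR adjusted p = 8.14e-08). The macrophage sums of amiR muscle were 45.8 to 104 CPM and its fibroblast sums 337 to 830 CPM, both wholly below those of transgenic vehicle muscle. By single gene, however, treatment called none of the 7 macrophage markers in muscle. Of the 6 fibroblast and fibro-adipogenic markers it called 1, which was lower, beside 1.12% of all genes. The part of these cells in the members' values was not tested.

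One transgenic amiR muscle, replicate 2, from a female of 38 weeks, had the lowest value of its arm for Runx1, Gdf5, Ncam1, Hdac4 and Gadd45a and the highest for Dach2. Across the 11 transgenic muscles, after each arm's mean log2 level was removed, several members varied together (21 pairs were compared). Hdac4 and Gadd45a had a Pearson r of 0.97 (permutation p = 1e-05, the smallest that 100000 resamples can give; adjusted 0.00021) and a Spearman rho of 0.97 (permutation p = 1e-05). Runx1 and Gadd45a had an r of 0.94 (permutation p = 2e-05, adjusted 0.00021) and a rho of 0.95 (permutation p = 6e-05, adjusted 0.00063). For Runx1 and Hdac4 the r was 0.95 (permutation p = 0.00081, adjusted 0.00567) and the rho 0.97 (permutation p = 0.00017, adjusted 0.00119). Without the 2 libraries farthest from the median these 3 values of r were 0.87, 0.85 and 0.82. Gdf5 and Dach2 ran opposite to each other, with an r of -0.87 (permutation p = 0.0023, adjusted 0.0121), a rho of -0.80 (permutation p = 0.00819, adjusted 0.043) and an r of -0.67 without the 2 farthest libraries. Sex was not removed from any of these correlations. Over all arms of muscle the male minus female log2 difference was -0.40 for Gdf5 and 0.53 for Dach2 (edgeR adjusted p = 0.354 and 0.338). The part of sex in this pair was not tested. Ncam1 had an r of 0.84 with Gadd45a (permutation p = 0.0462, adjusted 0.0969), a rho of 0.65 (permutation p = 0.0509, adjusted 0.153) and an r of 0.17 without the 2 farthest libraries, or of 0.73 without them when CPM were taken from plain library totals. The other 16 pairs did not pass after adjustment either.

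**Figure D2:**
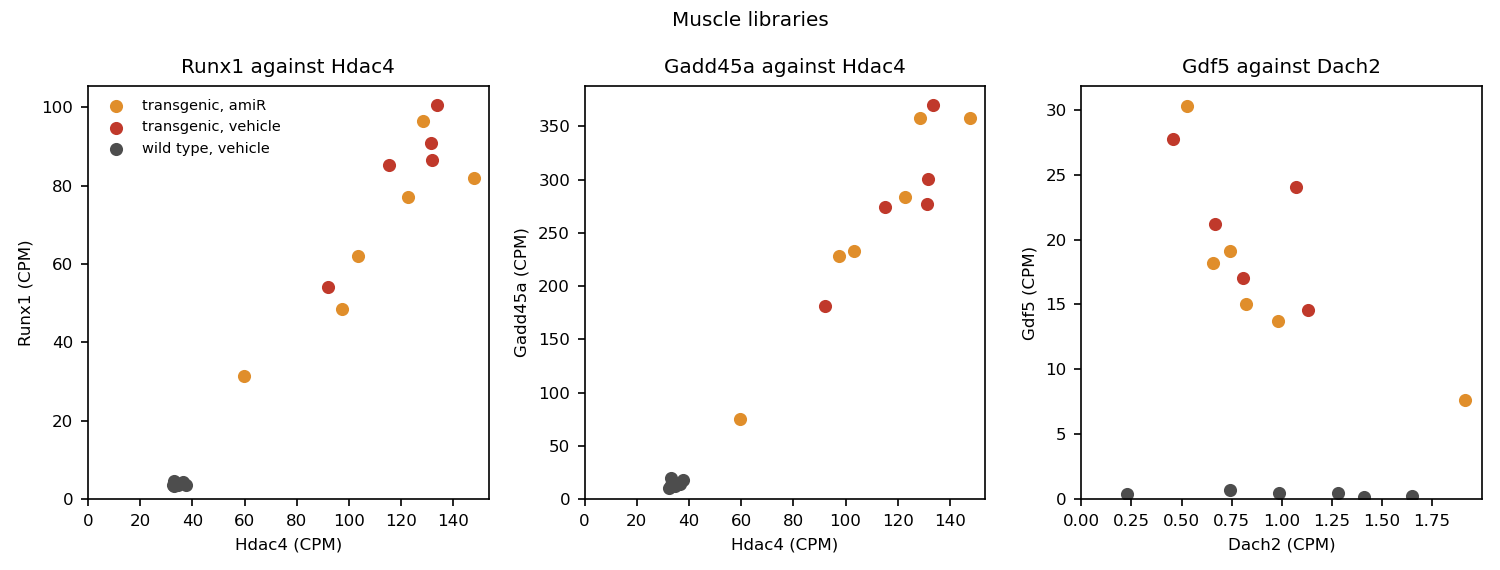
Pairs of members across the 11 transgenic muscle libraries, as log2 CPM minus the mean of the library's arm on both axes; each point is a library, for transgenic amiR and transgenic vehicle mice. Hdac4 and Gadd45a lie along one line (r = 0.97), and transgenic amiR replicate 2 lies at the low end.

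By pattern over all 17 muscle libraries, the genes most like each member were found among 12263 genes that averaged at least 1 CPM, using Pearson r of log2 CPM as a description that mixes the genotype change with variation within arms. Runx1 was followed most closely by Eda2r, Atp13a3 and Chrnd (r = 0.994 to 0.995). For Gdf5 they included Ankrd55 and Myog (0.991 each), and they were Uchl1 (0.992), Chrna1 (0.990) and Cntn2 (0.989) for Ncam1 and Ankrd10, Eda2r and Tbc1d31 (0.99 each) for Hdac4. Gadd45a was most like Runx1 (0.993) of all genes, then Gm34006 (0.992) and Eda2r (0.991). Eda2r, a receptor of the tumour necrosis factor family, was therefore among the 3 nearest genes of Runx1, Hdac4 and Gadd45a, and it stood at 90.8 CPM in transgenic vehicle muscle against 8.50 CPM in wild type. Hdac9 and Dach2, which varied little with genotype, had no such close neighbour: their nearest genes were Cdk2ap2 (0.821), Hmgn5 and Emc3 (0.812 each) for Hdac9, and Letmd1 (0.837), Arap3 (0.825) and Cdh5 (0.814) for Dach2.

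In spinal cord, where motor neurons die and glia react in this disease, the set behaved differently. Runx1 and Gadd45a rose in transgenic vehicle cords and Hdac4 fell, so 3 of the 8 members were called, beside 36.8% of 20307 genes. The other 5 were not called. Runx1 is also made by microglia and macrophages, and its levels in transgenic vehicle cords had a lowest, median and highest of 6.12, 7.95 and 10.4 CPM, against 1.31, 1.58 and 1.77 CPM in wild-type cords. Every transgenic vehicle cord stood more than 3 times above every wild-type cord. The log2 change was 2.33 (SE 0.25; edgeR adjusted p = 2.21e-06).

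Gadd45a in transgenic vehicle cords had a lowest, median and highest of 13.5, 14.1 and 16.5 CPM, against 7.96, 9.24 and 9.51 CPM in wild-type cords. The log2 change was 0.68 (SE 0.09; edgeR adjusted p = 1.76e-05), much smaller than in muscle but without overlap between arms. Gadd45b and Gadd45g also rose in this comparison, by 0.23 and 0.84 on the log2 scale. Hdac4 in transgenic vehicle cords had 38.8, 42.8 and 45.7 CPM, against 49.5, 52.2 and 53.4 CPM in wild-type cords. It fell by 0.28 on the log2 scale (SE 0.05; edgeR adjusted p = 0.00025), again without overlap. How common such separation is among all genes was not counted in cord either. Ncam1, abundant in neural tissue, averaged 364 ± 22.5 CPM in transgenic vehicle cords and 367 ± 16.1 CPM in wild-type cords (SD, n = 6 each) and was not called.

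Hdac9 averaged 22.3 ± 3.14 CPM in transgenic vehicle and 24.2 ± 3.65 CPM in wild-type cords, and Dach2 0.742 ± 0.217 and 0.864 ± 0.325 CPM in the same order of arms. Gdf5 averaged 0.216 ± 0.0402 CPM in transgenic vehicle and 0.256 ± 0.0774 CPM in wild-type cords, and Fgfbp1 0.135 ± 0.132 CPM in transgenic vehicle and 0.171 ± 0.166 CPM in wild-type cords (SD, n = 6 each). Of the related genes, 3 of the 4 RUNX partners were called higher and none lower, among them Runx3, which stood at 0.774 CPM in transgenic vehicle cords against 0.0966 CPM in wild-type cords. Of 9 tested synaptic targets 1 was called higher and 2 lower, and of 4 tested embryonic fibre genes none was called.

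**Figure D3:**
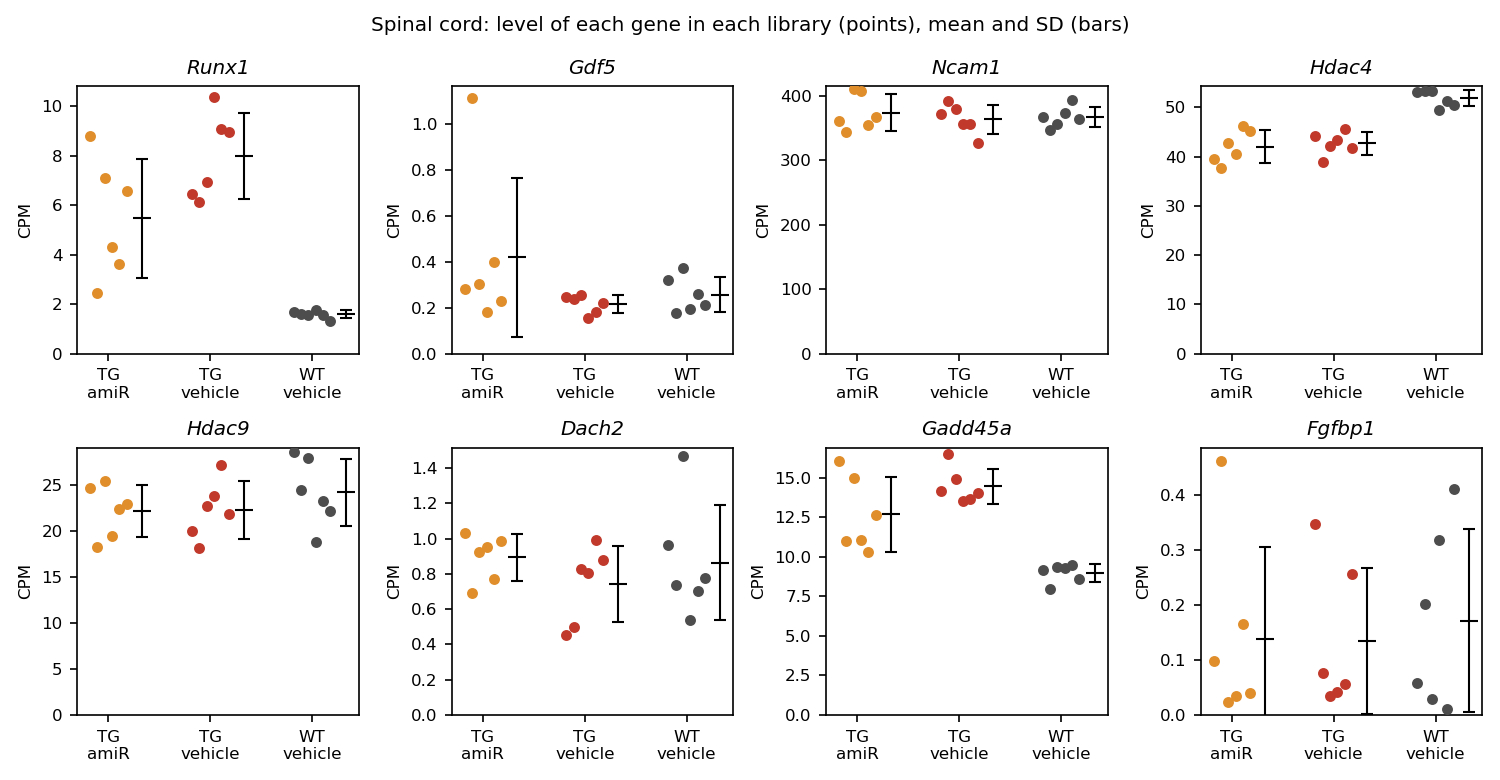
Level of each member in every spinal cord library, in CPM on a log axis, for transgenic amiR, transgenic vehicle and wild-type mice; points are libraries and bars are arm means. Runx1 and Gadd45a lie higher and Hdac4 lower in transgenic vehicle than in wild-type cords, and transgenic amiR replicate 2 has the highest Gdf5 and Fgfbp1.

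Treatment called none of the 8 members in spinal cord by edgeR, beside 5.11% of genes, and DESeq2 called none. An unadjusted edgeR p under 0.05 was found for 3 of the 8 members, beside 4745 of all 20307 genes tested. The edgeR model fitted across all genes gave Runx1 a log2 difference of -0.54 between transgenic amiR and transgenic vehicle cords (SE 0.24; edgeR adjusted p = 0.186). The 6 transgenic amiR cords held 8.80, 2.45, 7.11, 4.29, 3.62 and 6.57 CPM of Runx1 in replicate order, so that 3 lay inside the transgenic vehicle range and 3 below it. Without transgenic amiR replicate 1, the highest of its arm, Runx1 was called lower (log2 change -0.73; edgeR adjusted p = 0.0377). The share of all genes called without that cord is not given here. The number of all genes called by treatment in cord varied widely between the alternative analyses, as the closing section states. The other 2 were Gdf5, with a log2 difference of 0.90 (SE 0.33; edgeR adjusted p = 0.111) that was 0.41 without transgenic amiR replicate 2 (edgeR adjusted p = 0.300), and Gadd45a, with -0.19 (SE 0.09; edgeR adjusted p = 0.212). Gadd45a had a lowest, median and highest of 10.3, 11.8 and 16.1 CPM in transgenic amiR cords, a range that overlapped that of transgenic vehicle cords. Hdac4 had 37.7, 41.7 and 46.2 CPM in those cords, Ncam1 averaged 374 ± 28.2 CPM, Hdac9 22.2 ± 2.83 CPM and Dach2 0.894 ± 0.133 CPM (SD, n = 6). Against wild type, transgenic amiR cords had 3 members called, beside 25.5% of genes: Runx1 (log2 change 1.79) and Gadd45a (0.49) higher, and Hdac4 (-0.31) lower. The wild-type cords are shared by both comparisons. In the pathway lists treatment called 2 genes in cord, both lower in transgenic amiR cords: Fgfr1 (log2 change -0.23; edgeR adjusted p = 0.0193) and Gadd45b (-0.19; edgeR adjusted p = 0.0444).

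The spread of Runx1 among transgenic amiR cords ran with macrophage markers. The summed level of 7 macrophage markers, several of which microglia also express, was 1196, 320, 904, 378, 340 and 760 CPM in replicates 1 to 6, which is the same rank order as that of Runx1. These sums were 1275 to 1543 CPM in transgenic vehicle cords and 120 to 174 CPM in wild-type cords. Within transgenic vehicle cords and within wild-type cords the rank orders did not match. Transgenic vehicle replicate 2 had the lowest Runx1 of its arm, 6.12 CPM, with a sum of 1387 CPM. Replicate 6 of that arm had more Runx1, 8.97 CPM, with a lower sum of 1357 CPM. Wild-type replicate 5 had the highest sum of its arm, 174 CPM, with a Runx1 of 1.55 CPM, below the arm's median of 1.58 CPM. Of the 7 markers 6 were called higher in transgenic vehicle than in wild-type cords, and 2 were called lower in transgenic amiR than in transgenic vehicle cords. The 5 microglia markers summed to 342 to 710 CPM in transgenic amiR cords, 561 to 734 CPM in transgenic vehicle cords and 215 to 296 CPM in wild-type cords. The part of these cells in the Runx1 values was not tested. Neuron markers moved the opposite way, at 3210 to 3754 CPM in transgenic vehicle against 4730 to 5404 CPM in wild-type cords, with 4 of 5 called lower.

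**Figure D4:**
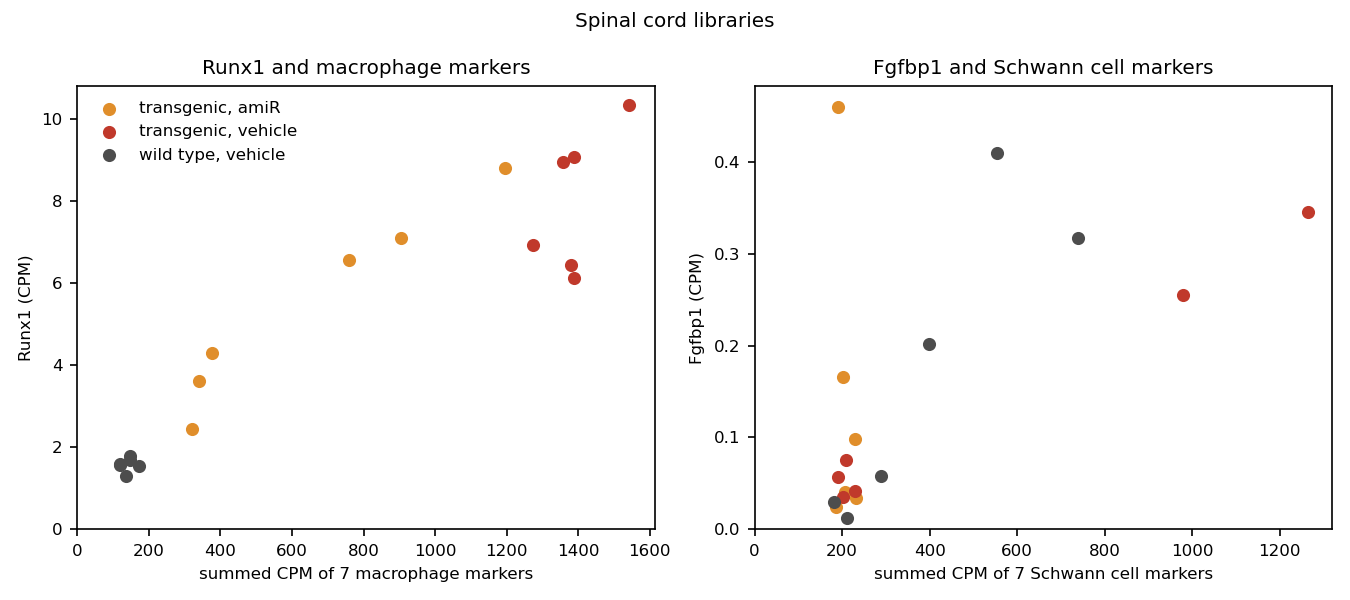
Runx1 in CPM against the summed CPM of 7 macrophage markers in each of the 18 spinal cord libraries, both on log axes, for transgenic amiR, transgenic vehicle and wild-type mice. Wild-type cords lie at the low end of both axes, transgenic vehicle cords at the high end, and the 6 transgenic amiR cords lie between and among them in one order on both axes.

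Other tissue was present in single cords. Transgenic amiR replicate 2 held adipocyte markers at 215.5 CPM and myofibre markers at 578 CPM, and transgenic vehicle replicate 1 held adipocyte markers at 21.8 CPM, while every other cord held at most 0.257 CPM of adipocyte markers. Schwann cell markers, which come from nerve roots, summed to 185 to 231 CPM in transgenic amiR cords, 190 to 1265 CPM in transgenic vehicle cords and 181 to 739 CPM in wild-type cords. Gdf5 was highest in transgenic amiR replicate 2, at 1.11 CPM, against 0.182 to 0.400 CPM in the other 5 cords of that arm. Without the 2 cords with adipocyte markers, an analysis chosen after seeing the data, 3 members were called between transgenic vehicle and wild type, beside 37.7% of genes. None was called by treatment, beside 1.339%, and 3 between transgenic amiR and wild type, beside 26.8%.

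In cortex no member was called. Transgenic vehicle against wild type called 0 of 8 members by edgeR, beside 0.0247% of genes called by edgeR, and 0 by DESeq2. In edgeR 1 member, Runx1, had an unadjusted p under 0.05, beside 752 of all 20278 genes tested. Runx1 averaged 1.61 ± 0.175 CPM in transgenic vehicle cortex (SD, n = 6) and 1.28 ± 0.127 CPM in wild-type cortex (SD, n = 5), a log2 difference of 0.30 (edgeR adjusted p = 0.995). Transgenic amiR against transgenic vehicle also called 0 of 8 by edgeR, beside 0.0197% of genes called by edgeR, and 0 by DESeq2. None had an unadjusted p under 0.05 in edgeR, beside 2302 of all 20278 genes tested. Transgenic amiR against wild type called 0 of 8 by edgeR, beside 1.12% of genes. Of the members, 3 (Runx1, Ncam1 and Hdac4) had an unadjusted edgeR p under 0.05, beside 3710 of all 20278 genes tested. DESeq2 called 1 of them, Runx1, beside 6.81% of genes called by that tool. It averaged 1.83 ± 0.429 CPM in transgenic amiR cortex (SD, n = 6), a log2 difference of 0.48 from wild type (SE 0.13; edgeR adjusted p = 0.0750).

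The other members had overlapping arms in cortex. Ncam1 averaged 309 ± 34.1 CPM in transgenic amiR, 288 ± 10.6 CPM in transgenic vehicle and 279 ± 8.34 CPM in wild-type cortex. Hdac4 averaged 61.7 ± 6.00, 63.1 ± 9.16 and 72.2 ± 7.27 CPM in the same 3 arms, and Hdac9 32.98 ± 4.4, 35.1 ± 3.53 and 35.1 ± 4.47 CPM. Gadd45a averaged 4.73 ± 0.351, 3.94 ± 1.10 and 4.87 ± 1.92 CPM. Gdf5 and Dach2 stayed under 1 CPM in every cortex. Fgfbp1 was best detected in cortex, at 1.46 to 5.61 CPM in transgenic amiR, 0.766 to 7.73 CPM in transgenic vehicle and 0.785 to 6.23 CPM in wild-type cortex, spread widely within each arm. No cord exceeded 0.461 CPM of Fgfbp1, and no muscle exceeded 0.112 CPM; CPM were scaled within each tissue separately.

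Whether the transgene's effect itself differed between tissues was tested in one model over all 52 libraries, which treats tissues as independent samples. Between muscle and spinal cord 6 members differed, beside 30.2% of 22316 genes. The difference of the log2 changes, muscle minus spinal cord, was 6.03 for Gdf5 (SE 0.51; edgeR adjusted p = 5.84e-13), 3.61 for Gadd45a (SE 0.32; 2.14e-12), 2.98 for Ncam1 (SE 0.20; 6.12e-16), 2.13 for Runx1 (SE 0.31; 3.09e-07), 2.12 for Hdac4 (SE 0.16; 3.69e-14) and 0.52 for Hdac9 (SE 0.20; 0.0409). Hdac4 is the one member called in opposite directions, higher in transgenic vehicle muscle and lower in transgenic vehicle cord. Between muscle and cortex 5 members differed, beside 26.6% of genes: Gdf5 (5.78), Gadd45a (4.58), Runx1 (4.12), Ncam1 (2.90) and Hdac4 (2.00). Between spinal cord and cortex 2 differed, beside 9.05% of genes: Runx1 (1.98, SE 0.33; edgeR adjusted p = 3.27e-05) and Gadd45a (0.97; edgeR adjusted p = 0.0498), which was lost with DESeq2 size factors. The effect of treatment did not differ between tissues for any member by edgeR. The shares of all genes called were 2.01% for muscle minus spinal cord, 1.80% for muscle minus cortex and 0.0583% for spinal cord minus cortex, and 1 member in each had an unadjusted p under 0.05. No other tool was run on these differences.

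**Figure D5:**
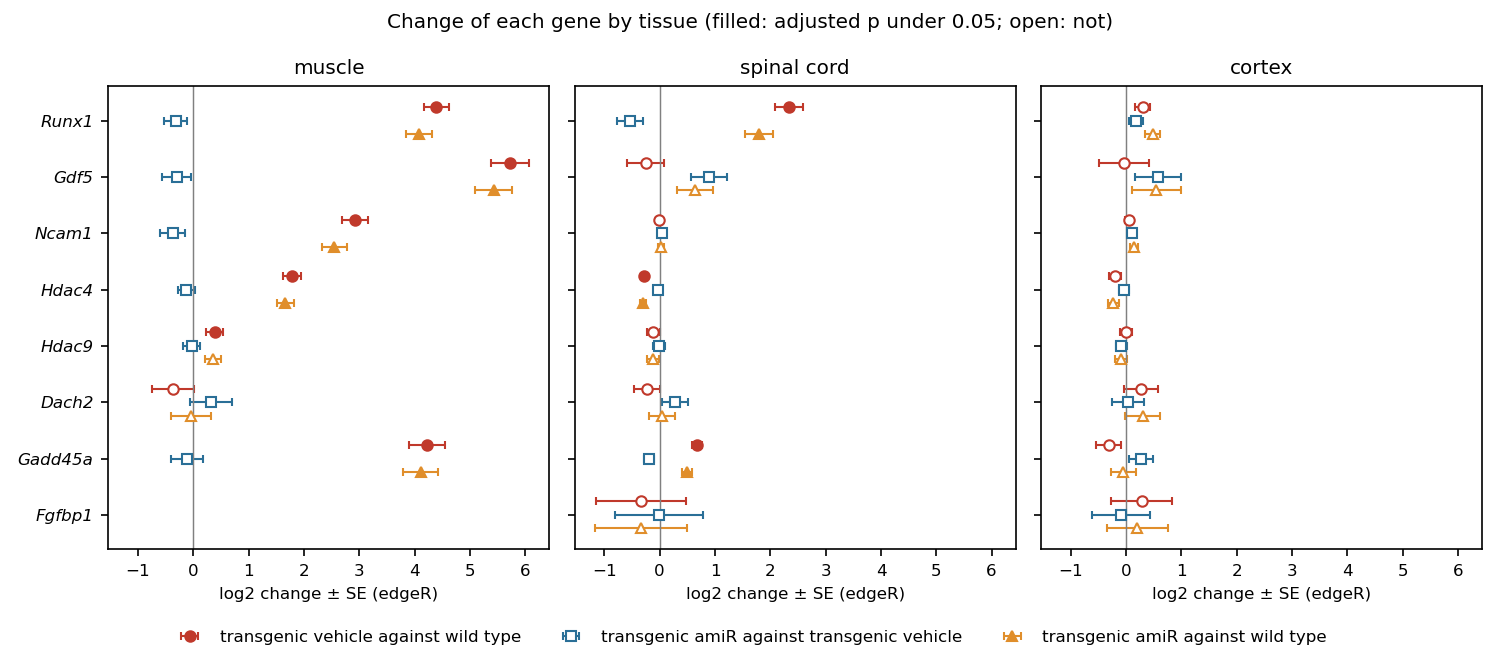
Log2 change of each member with its SE, by tissue, for transgenic amiR against transgenic vehicle and for transgenic vehicle against wild type, from edgeR. The transgene's changes are large in muscle, reaching 5.73 for Gdf5, are smaller in spinal cord, and lie near 0 in cortex, and the treatment's changes lie between -0.54 and 0.90 in all 3 tissues.

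Hdac9 was the one member called in the tests on sex. It was lower in male than in female muscle over all arms (log2 difference -0.43, SE 0.13; edgeR adjusted p = 0.0478), beside 7.45% of genes called. In spinal cord its transgene effect differed between the sexes, male minus female, by 0.59 (SE 0.18; edgeR adjusted p = 0.0498), beside 10.3% of genes. Dach2 had a difference of 1.24 in the same test and missed the threshold (edgeR adjusted p = 0.05003). All muscles and cords older than 36 weeks were from transgenic females, so sex and age cannot be fully told apart in either tissue.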

How the data were processed

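RNA-seq of 52 libraries was used, 17 of muscle, 18 of spinal cord and 17 of cortex. Per the labels' protocols, total RNA was made into poly(A) libraries and read in pairs of 100 bases. The authors deposited estimated counts per gene in one table, and the submitters' processing notes name RSEM 1.3.2 and STAR 2.7.2d, besides bcl2fastq 2.20, DESeq2 1.34.0 and the builds GRCh38 and GRCm38. The annotation release is not stated, and 54349 of 55401 gene IDs share their version with GENCODE M21, which gave exon lengths and coordinates. Genes that were not from mouse (the human PFN1 line, 16 vector elements and 92 spike-in lines, at most 0.167% of a library) stayed out of library sizes.

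The expected counts were rounded, filtered with filterByExpr and tested per tissue with edgeR 4.0.16 (quasi-likelihood, TMM, all 3 arms, terms for arm and sex, R 4.3.3), with DESeq2 1.42.0 as an alternative. The SE of a log2 change was its size divided by the square root of F. Differences between tissues came from 1 model over all libraries. The fits were tested on simulated data. Correlations used log2(CPM + 0.5) and permutation within arms, over 21 pairs because Fgfbp1 was not tested in muscle, in Python 3.11.15 with scipy 1.17.1. Count ranges are the lowest and highest counts over the libraries of an arm. Since no label says that the samples of an arm are separate animals, p-values measure the spread between those samples, which may be technical.

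Members, lists, markers and tests were chosen with earlier results of these data known. Named genes are the members, the 3 genes most like each in muscle, in each list up to 4 genes called in transgenic vehicle against wild-type muscle, by smallest adjusted p, Atxn2 and human PFN1. Of these genes, 2 are not reported here. Hdac5, Mstn, Ache, Chrne, Gadd45b, Gadd45g, Fbxo32 and Trim63 were named from the lists after their values were seen. Alternatives covered scaling, filter, sex, RNA integrity, age, labels, arms in the fit, the tool and each library left out.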

Additional observations from a re-analysis of the deposited data

Results flagged for a closer look

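Of 72 groups of 5 or 6 libraries examined, 4 held a library far from the others of its arm, and chance gives about 1 in 20. Dach2 stood at 1.92 CPM in transgenic amiR muscle replicate 2, the highest of its 6 libraries. Gdf5 stood at 1.11 CPM and Fgfbp1 at 0.461 CPM in transgenic amiR spinal cord replicate 2, the cord with adipocyte markers at 215.5 CPM. Gdf5 stood at 0.729 CPM in transgenic amiR cortex replicate 3.

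The transgene's effect differed between tissues past the threshold of edgeR's test for 13 pairings of a member with tissues. In muscle minus spinal cord, the differences of log2 changes were 2.13 for Runx1, 6.03 for Gdf5, 2.98 for Ncam1, 2.12 for Hdac4, 0.52 for Hdac9 and 3.61 for Gadd45a. In muscle minus cortex they were 4.12 for Runx1, 5.78 for Gdf5, 2.90 for Ncam1, 2.00 for Hdac4 and 4.58 for Gadd45a. In spinal cord minus cortex they were 1.98 for Runx1 and 0.97 for Gadd45a. The transgene's effect on Hdac9 in spinal cord differed between the sexes by 0.59, male minus female.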

How the results depend on the processing

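The muscle calls of Runx1, Gdf5, Ncam1, Hdac4 and Gadd45a between transgenic vehicle and wild type held in all 21 alternatives, and the 3 spinal cord calls of that comparison in all 24. No member reversed a called direction. Hdac9 in muscle lost its call in 13 of 21, with edgeR adjusted p of 0.203 with RNA integrity as a covariate and 0.0608 in mice of 36 weeks. Leaving out single spinal cords gave between 0 and 1 member called by treatment, the 1 being Runx1 without transgenic amiR replicate 1. The share of all genes called is not given for each cord left out, and the range over all alternatives is given below. DESeq2 called 1 member in cortex between transgenic amiR and wild type, beside 6.81% of genes, and DESeq2 size factors left 1 difference in transgene effect between spinal cord and cortex; the cause was not tested. The replicate block, with the titles' numbers in place of sex, gave 5 members in muscle, beside 46.1% of genes, and 3 in spinal cord, beside 34.7%, between transgenic vehicle and wild type. Same-numbered libraries correlated at -0.261 to 0.578 in muscle, -0.164 to 0.343 in spinal cord and -0.42 to 0.63 in cortex, so the numbers were not taken as pairs.

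Scaling by library totals moved the median log2 change of all genes in muscle to 0.35 between transgenic vehicle and wild type, with 9272 genes called higher and 1301 lower beside 4351 and 4201 under TMM. Letmd1 reversed to 0.25 there from -0.09 (uncalled) under TMM, a shift close to that of the all-gene median, and the uncalled Arap3 and Cdh5 turned to 0.10 and 0.18 in the same way. In muscle by treatment the split was 75 higher and 521 lower under library totals, beside 130 and 60, and the number of genes called ranged from 0 to 969 over all alternatives. In spinal cord by treatment that number ranged from 0 to 2539, against 1037, and in cortex between transgenic amiR and wild type from 9 to 1381, against 228. Arms by library name gave Gdf5 a treatment difference of -0.13 in spinal cord on the log2 scale. Of the 21 correlations, 4 passed under TMM by both coefficients. Under library totals the same 4 did, besides Ncam1 with Dach2 by Pearson's r (adjusted permutation p = 0.0483; Spearman 0.0857) and Ncam1 with Hdac4 by Spearman's rho (0.0215; Pearson 0.0592). Depth limits Fgfbp1 in muscle, at no more than 12 counts in a library.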
